A study of Mus musculus with 19 samples.

Results

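The milk protein genes were followed in mammary luminal cells (LCs) of C451A-ERα and wild-type mice through every probe whose gene name in the scanner files was Csn1s1, Csn1s2a, Csn1s2b, Csn2, Csn3, Wap, Lalba, Glycam1, Ltf or Cel. These 10 genes had 18 of the 56605 probes on the array. On 4 or more of the 19 arrays, 14 of the 18 probes gave signal well above background, and each of the 10 genes had at least 1 such probe. The brightest of these probes was read for each gene, so that 10 of the 20695 genes tested were milk protein genes. Values are median probe signals on the log2 scale, quantile-normalized over the arrays, and a log2 fold change is the difference between 2 group means of it.

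Each array carried RNA from the CD24+CD29lo LCs of 1 female C57Bl/6N mouse, and 19 mice in 4 groups were measured. All of them were ovariectomized at 24 days, received a hormone pellet 10 days later and were studied at 8 weeks of age, after 21 days of treatment. The pellet was made for 60 days and held 0.01 mg of 17β-estradiol (E2), alone or with 1.5 mg of progesterone (E2+Pg), so that no group was without E2. C451A-ERα is a knock-in change of the palmitoylated cysteine of ERα, the lipid anchor of the receptor at the plasma membrane, and it is not limited to the mammary gland of these mice. The wild-type mice were L67, L50, L72 and L52 on E2 (n = 4) and, on E2+Pg, L57, L62, L44, then L47 and L21 (n = 5). The mutants were L4, L58, L27, then L76 and L51 on E2 (n = 5), and L56, L18, L61, then L53 and L63 on E2+Pg (n = 5). Values of single mice are given below in this order.

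The luminal genes Krt8, Krt18 and Epcam were well above background on all 19 arrays, and so were the basal keratins Krt5 and Krt14. No probe reads the mutated base, so the genotype labels could not be checked. The 75th percentile of signal lay between 248.5 and 490 on the arrays. In array weights estimated by limma, where a low weight marks an array that fits its group mean poorly, L4 (0.241), L27 (0.283) and L18 (0.299) were lowest. In L18 the mean level of 9 luminal progenitor and alveolar markers was the highest of its group (13.49) and that of 8 hormone-sensing markers the lowest (10.76). Mouse L4 held the same places in the E2-treated C451A-ERα group (12.24 and 12.52). The alveolar list was not of one direction in these mice. Its member Rspo1 was the highest of the group in L18 (13.50) and L4 (9.73), and its member Aldh1a3 the lowest (13.93 and 12.49). The alveolar level without Rspo1 was not taken, so the place of L4 may rest on that gene. Both mice also had the lowest pan-luminal level of their groups (14.96 and 15.01) and the highest basal level (10.70 and 10.32). Calca and Tnfsf11, genes that progesterone is known to induce in LCs, were not uniform within the mutant groups. Calca was at 8.61 in L4, against 4.75 to 6.36 in the other E2-treated mice. It was at 5.72 in L63 and 9.11 in L56, against 9.67 to 12.59 in the other mice on E2+Pg. Tnfsf11 was well above background in L4 alone of the mice on E2, and not in L56, L53, L63 and L47 on E2+Pg. L4, L56 and L63 thus lay outside the range of the other mice of their treatment for Calca, and whether this lies with pellets or labels was not tested. Leaving out any 1 of these 3 mice called no milk protein gene. The fit over all mice called none either, so these counts cannot show whether the 3 mice matter. The 3 were not left out together.

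Caseins are the phosphoproteins that carry calcium and phosphate in milk, and they lie together in a gene cluster on mouse chromosome 5. Whey acidic protein and α-lactalbumin belong to the soluble fraction, and lactoferrin and bile salt-stimulated lipase are secreted defence and digestive proteins. Prolactin switches on most of these genes in alveolar cells through its receptor, JAK2 and STAT5, together with glucocorticoids. Progesterone drives alveolar growth in pregnancy and holds back full milk secretion until birth. Some of these genes, Csn3 and Ltf among them, are also read in luminal progenitors of virgin glands.

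The sequences before the transcription start are shown for the members that the results below turn on or that hold the motif of STAT5, the transcription factor of prolactin. They are from RefSeq on GRCm38.p6, cover the 250 bases before the start and run 5′ to 3′ on the strand of the gene. Capitals mark TTCNNNGAA, a palindrome and thus the same on both strands, to which STAT5 binds. The motif stood once in Csn1s1, Csn2 and Glycam1, with its first base 100, 93 and 145 bases before the start, and not in the window of Lalba.
Csn2 (chr5:87699426-87699675, minus strand): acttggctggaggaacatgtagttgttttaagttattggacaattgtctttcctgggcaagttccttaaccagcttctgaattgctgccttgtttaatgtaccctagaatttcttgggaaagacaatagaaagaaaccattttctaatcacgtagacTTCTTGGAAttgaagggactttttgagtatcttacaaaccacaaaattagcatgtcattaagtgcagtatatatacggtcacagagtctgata
Csn1s1 (chr5:87665958-87666207, plus strand): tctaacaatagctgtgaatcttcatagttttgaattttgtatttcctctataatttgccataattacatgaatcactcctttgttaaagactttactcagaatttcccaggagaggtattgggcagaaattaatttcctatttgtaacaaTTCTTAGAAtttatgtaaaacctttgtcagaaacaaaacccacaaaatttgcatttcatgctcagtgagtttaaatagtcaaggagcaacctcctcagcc
Glycam1 (chr15:103565082-103565331, minus strand): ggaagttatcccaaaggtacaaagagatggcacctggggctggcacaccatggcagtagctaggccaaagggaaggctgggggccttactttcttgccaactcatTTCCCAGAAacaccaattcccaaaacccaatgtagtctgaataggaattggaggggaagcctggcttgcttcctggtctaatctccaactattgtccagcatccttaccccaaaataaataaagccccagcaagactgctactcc
Lalba (chr15:98482684-98482933, minus strand): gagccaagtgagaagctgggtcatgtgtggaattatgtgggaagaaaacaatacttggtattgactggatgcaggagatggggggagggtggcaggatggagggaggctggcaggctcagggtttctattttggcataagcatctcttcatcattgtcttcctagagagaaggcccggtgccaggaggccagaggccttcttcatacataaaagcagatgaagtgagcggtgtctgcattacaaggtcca
The promoter table held 8 of the 10 members, not Csn1s2b and Csn3. The motif was in 3 of the 8 and in 7.02% of all 32851 promoters of the table (2306). The windows of Csn1s2a, Wap, Lalba, Ltf and Cel did not hold these letters. A match describes the sequence and does not show that STAT5 was bound in these cells.

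With the fit over all genes, no milk protein gene passed an adjusted p of 0.05 and a fold change of 1.5 in any of the 5 comparisons. The genes called over the whole array were 0.029% of those tested between genotypes under E2 and 0.00483% under E2+Pg. They were 1.33% for E2+Pg against E2 in wild-type, 2.45% in C451A-ERα and 0% for the interaction of genotype and progesterone. An unadjusted p under 0.05 from limma was held by Lalba alone between genotypes, under E2 (13.6% of all genes) and under E2+Pg (18.3%). For progesterone it was held by Csn2, Csn3 and Lalba in wild-type (16.3%) and by Csn3 in C451A-ERα (18.4%), and for the interaction by Csn2 (9.37%). Apart from wild-type with progesterone, 1 of 10 members is near or below the share of all genes. In wild-type LCs the E2 and E2+Pg mice did not overlap for 3 of the 10 genes, Csn1s1, Csn2 and Csn3, against 8.68% of all genes. No member was free of overlap between genotypes under E2 (3.51% of all genes) or E2+Pg (2.62%), or between treatments in C451A-ERα (5.04%).

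**Figure D1:**
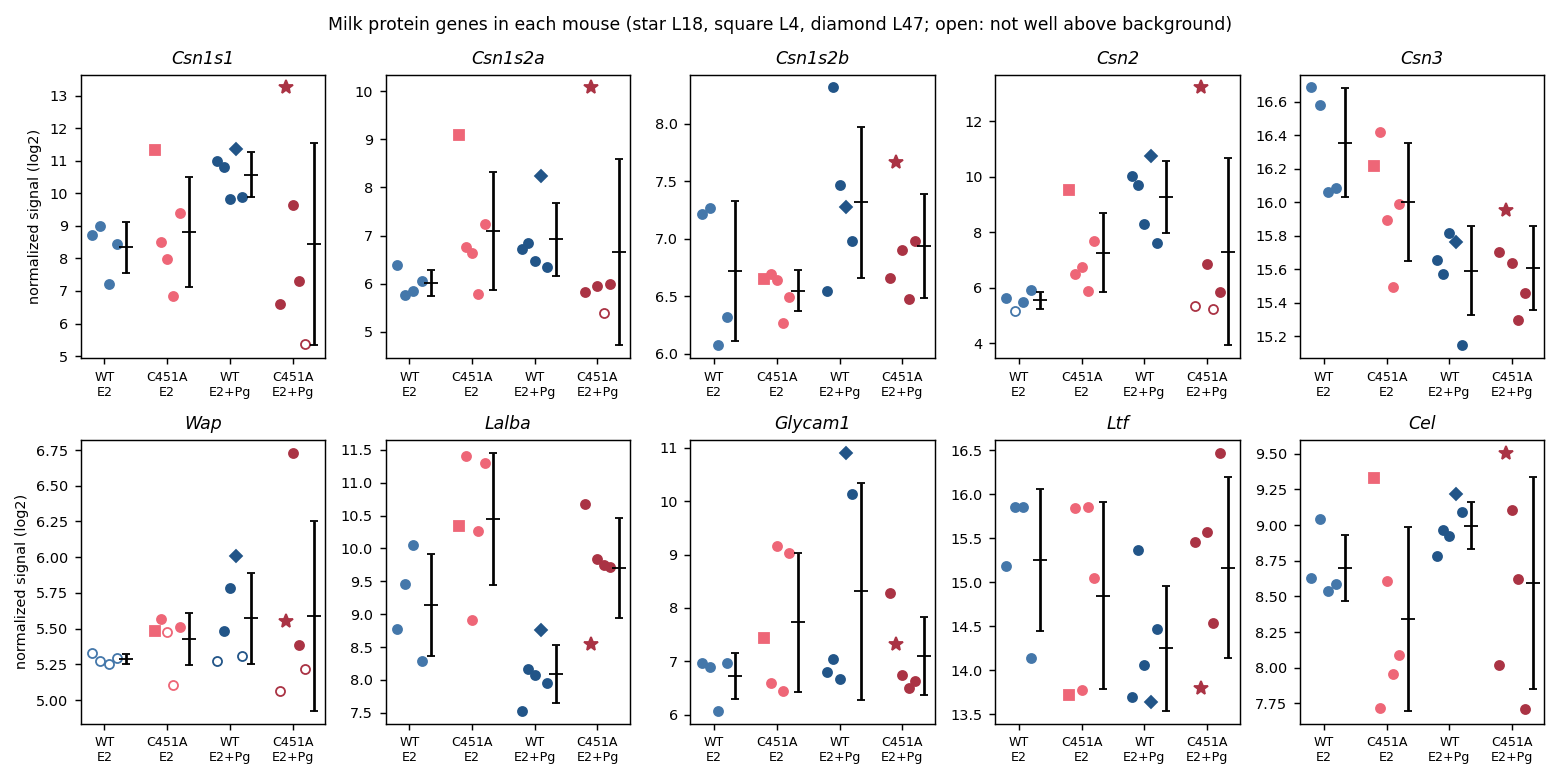
Normalized log2 signal (y axis) of each milk protein gene by group (x axis), with 1 point for each mouse and the group mean ± SD beside them. Mouse L18 (star) lay at 13.22 for Csn2 while the other C451A-ERα mice on E2+Pg were between 5.22 and 6.84.

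Csn2 encodes β-casein, a major casein of mouse milk, and its probe lies on chromosome 5 of mm9 (88121767 to 88121826, minus strand). Its signal in wild-type mice on E2 was 5.64, 5.17, 5.49 and 5.91, with the second value not well above background. In wild-type mice on E2+Pg it was 10.03, 9.69, 8.28, 10.75 and 7.59. Every wild-type mouse with progesterone thus lay above every wild-type mouse without it. The difference was 3.72 ± 1.23 (log2, SE), or 13.1-fold, with a limma adjusted p of 0.138. This SE comes from a spread shared by all 4 groups, mutants included. The SD of Csn2 was 0.31 (E2) and 1.30 (E2+Pg) in wild-type, and 1.42 and 3.37 in C451A-ERα. The exact two-sided permutation test gave p = 0.0159, the smallest that 4 against 5 mice allow. Progesterone was the higher in 4 of 4 slides that carried both, by 1.68 to 5.26.

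In C451A-ERα mice the Csn2 signal was 9.52, 6.48, 6.73, 5.89 and 7.69 on E2. On E2+Pg it was 5.33, 13.22, 6.84, 5.22 and 5.85, with L56 and L53 not well above background. Mouse L18 held the highest Csn2 signal of all 19 mice, and 3 of its 4 group mates lay below 5.91, the highest wild-type mouse on E2. The order of the group means ran from wild-type with E2 (5.55 ± 0.31, SD, n = 4) over the mutants with E2 (7.26 ± 1.42) and the mutants with E2+Pg (7.29 ± 3.37) to wild-type with E2+Pg (9.27 ± 1.30, n = 5 in these 3). Each neighbouring pair in this order overlapped. The difference for progesterone in C451A-ERα was 0.03 ± 1.16 (adjusted p = 0.994, limma), and without L18 it was -1.45 ± 0.67 (adjusted p = 0.177). The interaction was -3.69 ± 1.70, with an unadjusted p of 0.0432 and an adjusted p of 0.472 from limma. Without L18 it was -5.17 ± 0.94 (limma adjusted p = 0.176).

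Between genotypes, Csn2 under E2+Pg differed by -1.98 ± 1.16 (limma adjusted p = 0.34; exact permutation p = 0.278). It was lower in the C451A-ERα mouse in 4 of 5 slides. The slide that went the other way held L18. Without L18 the difference was -3.46 ± 0.67 with an adjusted p of 0.0248 (limma), in a fit that called 5.3% of all genes. Over all alternatives, fits with mice left out included, the limma adjusted p ran from 0.003 to 0.59. Under E2, Csn2 was higher in C451A-ERα by 1.71 ± 1.23 (limma adjusted p = 0.583; exact permutation p = 0.0317), in 4 of 4 slides, and without L4 by 1.15 ± 1.27.

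Csn1s1 encodes αS1-casein, which joins β-casein in the casein micelle, and its probe lies on chromosome 5 of mm9 (88111332 to 88111391, plus strand). Its signal was 8.72, 9.01, 7.23 and 8.44 in wild-type mice on E2, and 11.00, 10.79, 9.83, 11.35 and 9.89 on E2+Pg. The groups did not overlap. The difference was 2.22 ± 1.16, or 4.67-fold, with a limma adjusted p of 0.352 and an exact permutation p of 0.0159. It was positive in 4 of 4 slides, between 1.45 and 4.12. Its SE again rests on the spread shared by all 4 groups. The SD was 0.78 (E2) and 0.68 (E2+Pg) in wild-type, and 1.68 and 3.11 in C451A-ERα.

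In C451A-ERα mice Csn1s1 was at 11.33, 8.49, 7.98, 6.84 and 9.38 on E2 and at 6.60, 13.25, 9.65, 7.30 and 5.38 on E2+Pg, the last not well above background. L18 was again the highest mouse of all and L63 the lowest. The group with progesterone had the widest spread of Csn1s1 (SD 3.11, against 0.68 in wild-type). Under E2+Pg the genotypes differed by -2.14 ± 1.09 (limma adjusted p = 0.296), and C451A-ERα was the lower in 4 of 5 slides. Without L18 the difference was -3.34 ± 0.81 and the adjusted p from limma 0.037, and without L63 they were -1.37 ± 1.06 and 0.575. The fit without L18 called 5.3% of all genes in this comparison. For progesterone in C451A-ERα, Csn1s1 differed by -0.37 ± 1.09 (limma adjusted p = 0.894), and by -1.57 ± 0.81 without L18. Under E2 the genotype difference was 0.46 ± 1.16 (limma adjusted p = 0.903), and -0.17 ± 1.16 without L4. Over all alternatives the limma adjusted p for genotype was 0.00668 to 0.575 under E2+Pg and 0.77 to 0.984 under E2. No array had the other Csn1s1 probe well above background.

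**Figure D2:**
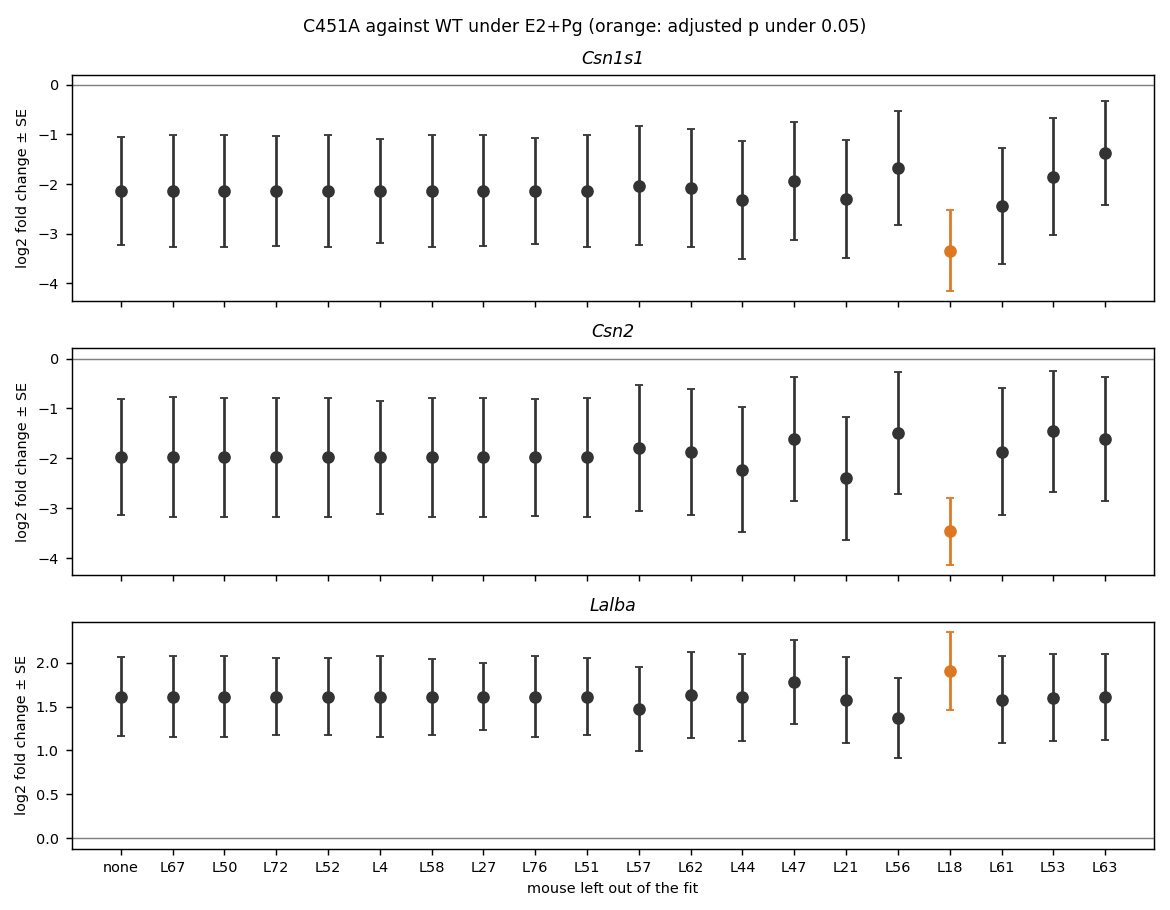
Log2 fold change ± SE (y axis) of C451A-ERα against wild-type under E2+Pg for Csn1s1, Csn2 and Lalba, in the fit with all mice (none) and with each mouse left out in turn (x axis). Without L18 all 3 genes passed an adjusted p of 0.05, at -3.34, -3.46 and 1.90, and without any other mouse none of the 3 did. The fit without L18 called 5.3% of all genes in this comparison, against 0.00483% with all mice.

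Csn1s2a and Csn1s2b encode the αS2-like caseins γ and δ. Csn1s2a was at 6.39, 5.78, 5.85 and 6.06 in wild-type mice on E2, and at 6.71, 6.84, 6.48, 8.24 and 6.35 on E2+Pg. In C451A-ERα mice it was at 9.08, 6.76, 6.63, 5.79 and 7.25 on E2, and at 5.83, 10.07, 5.96, 5.38 and 5.99 on E2+Pg. The mice that stood out were those of Csn2 and Csn1s1, namely L47, L4 and L18. For progesterone in wild-type the Csn1s2a difference was 0.90 ± 0.77 (limma adjusted p = 0.56), and L67 and L21 alone made the groups overlap. Csn1s2b ranged only from 6.07 to 8.32 over all mice, and its largest difference was 0.60 ± 0.32 for progesterone in wild-type (limma adjusted p = 0.358). Its other 3 probes were well above background on at most 2 arrays.

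Csn3 encodes κ-casein, the casein on the surface of the micelle that keeps it in solution, and its probe lies on chromosome 5 of mm9 (88361449 to 88361508, plus strand). In wild-type mice it was lower with progesterone, where Csn1s1 and Csn2 were higher. Its signal was 16.69, 16.58, 16.06 and 16.09 in wild-type mice on E2 and 15.66, 15.57, 15.82, 15.76 and 15.15 on E2+Pg. The groups did not overlap, and the mouse with progesterone was the lower in 4 of 4 slides. The difference was -0.76 ± 0.20, a 1.7-fold lower signal, with a limma adjusted p of 0.0607 and an exact permutation p of 0.0159. Its adjusted p ran from 0.0094 to 0.216 over the alternatives. In C451A-ERα mice Csn3 was at 16.22, 16.42, 15.89, 15.50 and 15.99 on E2 and at 15.71, 15.95, 15.64, 15.30 and 15.46 on E2+Pg. The difference there was -0.39 ± 0.19 (limma adjusted p = 0.27), with the progesterone mouse lower in 5 of 5 slides. Each genotype difference of Csn3 was smaller, at -0.35 ± 0.20 under E2 and 0.02 ± 0.19 under E2+Pg.

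A second Csn3 probe, which spans an intron of the gene, differed by -0.74 ± 0.23 for progesterone in wild-type and by -0.34 ± 0.22 in C451A-ERα. A further probe, made for another Csn3 transcript, differed by -0.14 ± 0.35 and -0.01 ± 0.33. Both differences of this last probe were smaller than their SE.

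Lalba encodes α-lactalbumin, the subunit that makes a galactosyltransferase produce lactose, and its probe lies on chromosome 15 of mm9 (98310831 to 98310890, minus strand). Among the 10 genes it had the lowest unadjusted p between genotypes under either treatment. On E2 it was at 8.77, 9.46, 10.06 and 8.29 in wild-type mice and at 10.34, 11.41, 8.91, 10.26 and 11.30 in C451A-ERα mice. On E2+Pg it was at 7.53, 8.17, 8.07, 8.75 and 7.95 in wild-type mice and at 10.68, 8.54, 9.84, 9.75 and 9.72 in C451A-ERα mice. Under E2+Pg all C451A-ERα mice but L18 lay above all wild-type mice, and L18 lay below wild-type mouse L47 alone. L18, highest for Csn1s1 and Csn2, was thus the lowest C451A-ERα mouse with progesterone for Lalba.

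The Lalba difference between genotypes under E2+Pg was 1.61 ± 0.45, or 3.06-fold, with a limma adjusted p of 0.132 and an exact permutation p of 0.0159. It was positive in 5 of 5 slides, from 0.37 to 3.14. Without L18 it was 1.90 ± 0.44 (limma adjusted p = 0.0357), in a fit that called 5.3% of all genes. Over the alternatives the adjusted p ran from 0.00394 to 0.308. Under E2 it was 1.30 ± 0.48, or 2.47-fold (limma adjusted p = 0.229; exact permutation p = 0.0794), and positive in 4 of 4 slides. Its adjusted p there ran from 0.000665 to 0.572. For progesterone the Lalba difference was -1.05 ± 0.48 in wild-type (limma adjusted p = 0.291), lower in 4 of 4 slides, and -0.74 ± 0.45 in C451A-ERα (adjusted p = 0.405). The interaction was 0.31 ± 0.66. The group means stood in the order wild-type with E2+Pg (8.09 ± 0.44), wild-type with E2 (9.14 ± 0.77), C451A-ERα with E2+Pg (9.71 ± 0.76) and C451A-ERα with E2 (10.45 ± 1.01). Each neighbouring pair overlapped.

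Wap encodes whey acidic protein, a whey protein of late pregnancy and lactation. Its signal did not clear background in any of the 4 wild-type mice on E2 and did so on 9 of 19 arrays in all. Its highest signals were 6.73 in L61 and 6.01 in L47, and every other mouse lay between 5.06 and 5.79. Against wild-type with E2, Wap differed by 0.28 ± 0.25 (log2, SE) in wild-type with E2+Pg (limma adjusted p = 0.578). In C451A-ERα with E2 it differed by 0.14 ± 0.25 (limma adjusted p = 0.86). Wild-type mice on E2 were at 5.25 to 5.33, and the mutant L76 on E2 lay below them at 5.10. With signals so near background, neither difference establishes an increase.

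**Figure D3:**
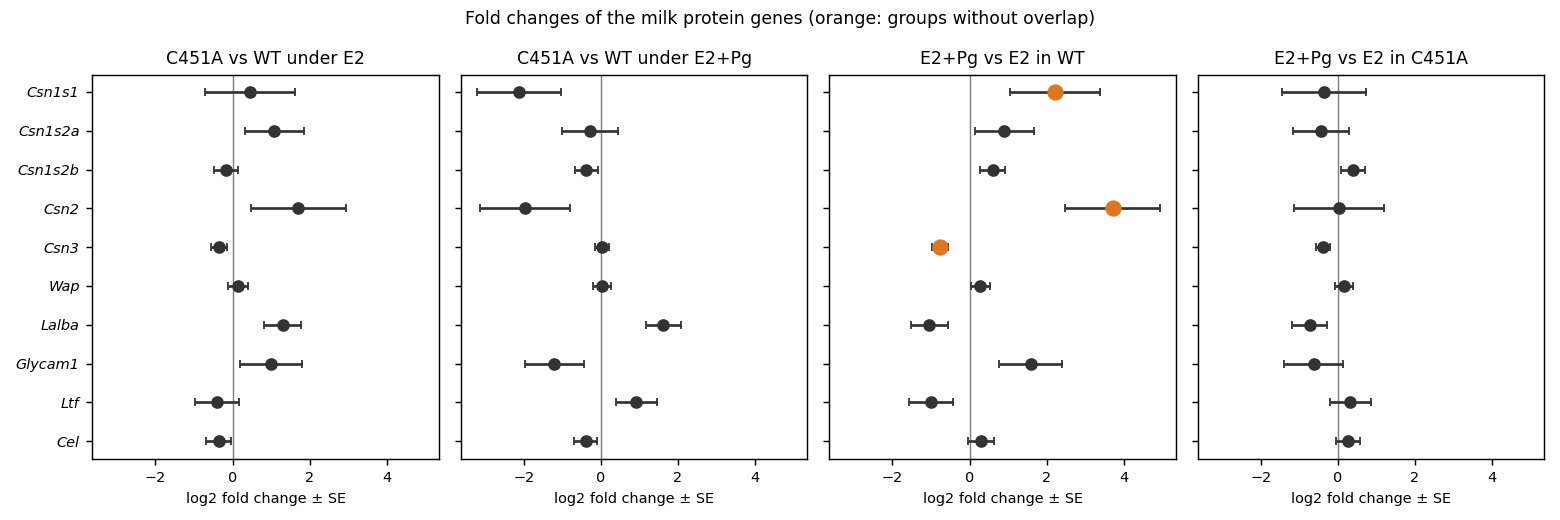
Log2 fold change ± SE (x axis) of each milk protein gene (y axis) in the 4 comparisons, with genes whose groups did not overlap in orange. Those were Csn1s1, Csn2 and Csn3 for progesterone in wild-type, at 2.22, 3.72 and -0.76.

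Glycam1 encodes a mucin-like protein of whey that endothelial cells of lymph nodes also make. It was at 6.97, 6.90, 6.07 and 6.96 in wild-type and 7.44, 6.58, 9.16, 6.44 and 9.03 in C451A-ERα mice on E2. On E2+Pg it was at 6.80, 7.04, 6.68, 10.91 and 10.13 in wild-type mice and at 8.27, 7.31, 6.74, 6.50 and 6.63 in C451A-ERα mice. Mice L47, L21, L27, L51 and L56 lay above 8 and all others below, in 3 of the 4 groups. A second Glycam1 probe was well above background on 7 arrays, and its 5 highest signals were in the same 5 mice. No Glycam1 comparison passed. The largest difference between 2 groups was 1.59 ± 0.81 for progesterone in wild-type (limma adjusted p = 0.343). In C451A-ERα the progesterone difference was -0.64 ± 0.76, and the interaction was -2.22 ± 1.12 (limma adjusted p = 0.472). Of 4 other markers of high endothelial venules, no array had Chst4 or Madcam1 well above background. Ccl21a and Fut7 were tested and did not pass. Ccl21a was highest in L67 (9.76) and L76 (9.18), which were not among the 5 mice with high Glycam1. Those 5 were at 7.26 to 8.96, and L21 (8.96) was the highest of its group. Fut7 was at 5.58 in both L47 and L21 and at 5.43 in L27, not well above background in these. It was well above background in L51 (5.72) and in L56 (6.10), the highest of its group. The cell source of Glycam1 was not tested.

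Ltf encodes lactoferrin, an iron-binding antimicrobial protein that neutrophils also store. It ranged from 13.64 to 16.47 over all mice, with a spread inside each group (SD 0.71 to 1.06) near the size of the group differences. These were 0.92 ± 0.54 for genotype under E2+Pg and -1.01 ± 0.57 for progesterone in wild-type (limma adjusted p = 0.336 and 0.382). L4, L47 and L18, which led their groups for Csn1s1, Csn1s2a and Csn2, were at 13.71, 13.64 and 13.80 and the lowest of their groups for Ltf. No array had the neutrophil granule gene Ngp well above background. The mean level of the 5 neutrophil genes tested was 6.43 to 7.09 in wild-type with E2 and 6.31 to 6.65 in C451A-ERα with E2. With E2+Pg it was 6.31 to 6.89 in wild-type and 6.02 to 7.40 in C451A-ERα, where L18 was lowest. Ly6g, a surface antigen of neutrophils in that list, fell with progesterone in C451A-ERα by 1.59 ± 0.34 (limma adjusted p = 0.0155), and no other gene of the list passed in any comparison.

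Cel encodes bile salt-stimulated lipase, which the lactating gland and the pancreas secrete. Its values were close together in wild-type, from 8.54 to 9.04 with E2 and 8.78 to 9.21 with E2+Pg. In C451A-ERα they ran from 7.72 to 9.33 and from 7.71 to 9.51, with L4 and L18 at the top. The genotype difference was -0.36 ± 0.33 under E2 and -0.40 ± 0.31 under E2+Pg (limma adjusted p = 0.68 and 0.469). No array had the pancreatic genes Prss2, Cpb1 or Pnlip well above background. Cpa1 and Cela3b were each well above it on 1 array of C451A-ERα with E2+Pg. The mean level of the 5 pancreatic genes tested was 6.63 to 6.96 in wild-type and 6.25 to 6.57 in C451A-ERα with E2+Pg, without overlap. With E2 it was 6.28 to 6.69 and 5.97 to 6.58, with overlap, and none of the 5 passed.

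**Figure D4:**
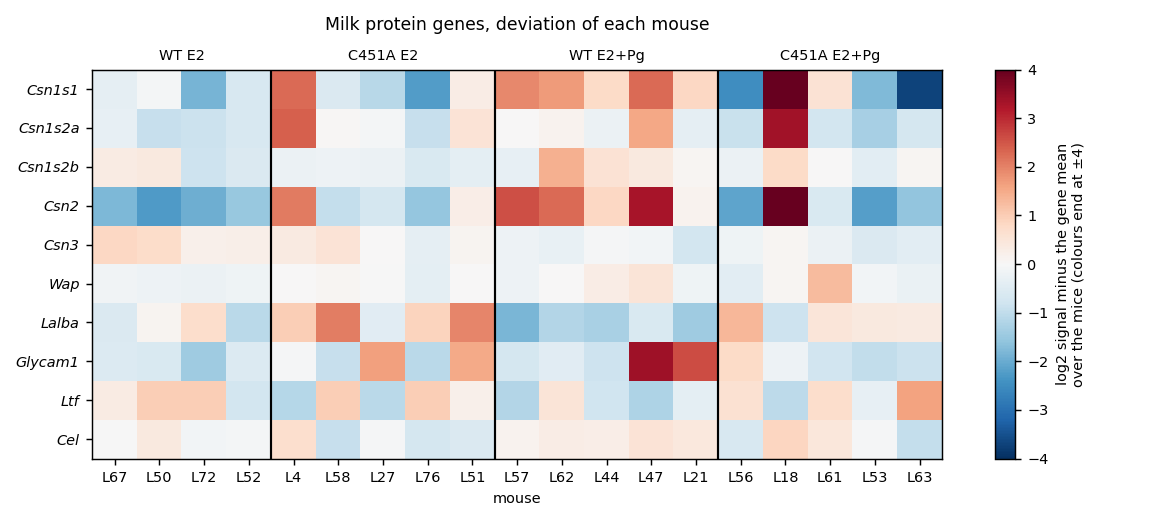
Deviation of each mouse (x axis, by group) from the mean of the 19 mice for each milk protein gene (y axis), as a log2 difference with colours that end at ±4. L18 was the highest of its group for 6 of the 10 genes and L47 for 7, while L76 was the lowest for 7.

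The leading mouse of a group was not the same for all 10 genes. L47 was the highest wild-type mouse with progesterone for Csn1s1, Csn1s2a, Csn2, Wap, Lalba, Glycam1 and Cel. L18 led its group for all 5 caseins and Cel and was its lowest mouse for Lalba and Ltf. L4 led C451A-ERα mice on E2 for Csn1s1, Csn1s2a, Csn2 and Cel. The median log2 fold change of the 10 genes was 0.30 for genotype under E2 and -0.33 under E2+Pg, against 0.03 and -0.03 over all genes. For progesterone it was 0.45 in wild-type and -0.17 in C451A-ERα, against 0.04 and 0.00 over all genes.

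Several settings of the fit called members that the fit over all mice did not. With array weights, Lalba and Cel passed for genotype under E2 (10.9% of all genes called), and Csn1s1, Csn2 and Lalba under E2+Pg (11%). Csn2 and Csn3 passed for progesterone in wild-type (7.93%). Without L4, L18 and L27, Lalba passed under E2 (1.44% of all genes called). In the same fit Csn1s1, Csn1s2a, Csn2, Lalba and Ltf passed under E2+Pg (14.5%), and Csn2 and Csn3 for progesterone in wild-type (3.89%). For progesterone in wild-type, Csn2 and Csn3 also passed without L18 (2.16%), Csn1s1 and Csn2 with only these groups in the fit (1.52%), and Csn3 in the authors' value table (1.99%) and without L72 (2.8%). In each of these, the direction was that of the fit over all mice. L4, L18 and L27 are mutants, so leaving them out reaches the wild-type comparison only through the spread shared by the groups.

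Of the 9 luminal progenitor and alveolar markers, Rspo1 alone passed for progesterone in either genotype, and the median log2 fold change of the list was 0.31 in wild-type and 0.55 in C451A-ERα. The mean level of the 9, Rspo1 included, was 11.87 to 12.51 in wild-type mice on E2 and 12.55 to 13.14 on E2+Pg. The mean of Rspo1 itself went from 7.17 to 12.14 there. The level without Rspo1 was not taken, so the gap between these ranges does not show a shift of the whole list. The mean level of the 8 hormone-sensing markers was 12.18 to 12.78 and 11.25 to 11.67. In C451A-ERα mice the alveolar level was 11.72 to 12.24 on E2 and 12.46 to 13.49 on E2+Pg, and the hormone-sensing level 12.52 to 12.84 and 10.76 to 12.07. Pgr, Foxa1, Prom1 and Ly6a of the hormone-sensing list fell with progesterone in C451A-ERα (limma, log2 fold changes from -0.99 for Pgr to -1.88 for Ly6a), and none of the list passed in wild-type. The difference between the genotypes in this was not called for any of the 8. The pan-luminal level of wild-type mice was 15.59 to 15.86 on E2 and 15.18 to 15.58 on E2+Pg, without overlap, like their hormone-sensing level. The mean level of 9 epidermal markers was 7.51 to 8.63 in wild-type and 6.46 to 7.17 in C451A-ERα with E2, and 6.24 to 7.70 and 5.99 to 7.33 with E2+Pg. Of these markers Sprr1b, an envelope protein of keratinocytes, fell with progesterone in wild-type by 2.50 ± 0.48 (limma adjusted p = 0.0152), and the other 8 did not pass. No pan-luminal, basal, other immune, endothelial, fibroblast or adipocyte marker passed in any comparison. The basal keratin Krt5 was at 10.52 to 11.95 in wild-type mice on E2 and 7.68 to 9.56 on E2+Pg, without overlap, a difference of -2.67 ± 0.71 (limma adjusted p = 0.0682). In C451A-ERα its difference was -1.91 ± 0.67 (limma adjusted p = 0.128). The part of these markers in the milk protein values was not tested. In bulk RNA of sorted cells, fewer cells of a type and less RNA per cell cannot be told apart.

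Rspo1, a secreted Wnt agonist of the alveolar marker list, was the marker in that list that passed for progesterone, at 4.97 ± 0.80 in wild-type and 3.25 ± 0.76 in C451A-ERα (limma adjusted p = 0.0063 and 0.0263). It lay between 11.80 and 12.55 in all wild-type mice on E2+Pg, and between 8.23 (L63) and 13.50 (L18) in C451A-ERα mice. Among E2-treated mice it was highest in L4, at 9.73. L4 and L18 thus led their groups for Rspo1 as for Csn1s1 and Csn2. In wild-type mice on E2+Pg this was not so, since L47 led for Csn1s1 and Csn2 and was at 12.18 for Rspo1, below L44 (12.55) and L21 (12.37).

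Of 27 genes of prolactin and lactogenic signaling, 25 were tested. None passed between genotypes. Socs1, an inhibitor of JAK kinases, fell with progesterone in wild-type by 1.13 ± 0.27 (limma adjusted p = 0.0418), from 8.71 ± 0.41 (SD, n = 4) to 7.58 ± 0.37 (n = 5). In C451A-ERα its mean was 7.42 on E2 and 7.40 on E2+Pg. On E2 the mutants (6.98 to 7.97) lay below all wild-type mice (8.11 to 9.01), which held for 3.51% of all genes in either direction. Pgr, the progesterone receptor, fell with progesterone in C451A-ERα by 0.99 ± 0.25 (adjusted p = 0.0361), from 10.87 ± 0.59 to 9.87 ± 0.42 (n = 5 each). In wild-type Pgr did not pass but was also lower with progesterone. It was at 11.02 to 11.61 on E2 and 10.29 to 10.85 on E2+Pg, without overlap (8.68% of all genes). The receptor Prlr, the kinase gene Jak2 and Stat5a did not pass in any comparison. Under E2, Jak2 was at 10.18 to 11.16 in wild-type and 9.56 to 10.12 in C451A-ERα, without overlap (3.51% of all genes). Stat5a in wild-type was at 12.08 to 12.23 on E2 and 11.03 to 11.54 on E2+Pg, without overlap (8.68% of all genes). In C451A-ERα on E2, Stat5a was at 11.22 to 12.37 and overlapped wild-type on E2. Jak2 was -1.06 ± 0.21 for genotype under E2 (limma adjusted p = 0.106), and Prlr was -1.05 ± 0.30 for progesterone in C451A-ERα (adjusted p = 0.066). The median log2 fold change of the list lay between -0.08 and 0.08 in the 4 comparisons.

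Of 40 genes of other milk components and secretion, 37 were tested. Mfge8, the milk fat globule protein lactadherin, rose with progesterone in C451A-ERα by 0.66 ± 0.17 (limma adjusted p = 0.0407), from 17.22 ± 0.31 to 17.88 ± 0.25 (SD, n = 5 each). No other gene of the list passed, and its medians were -0.07 to 0.15. Of 14 neighbours of the casein cluster, 1 was tested, Odam, and its largest difference was -0.23 ± 0.26. Of 21 members of the whey acidic protein and lysozyme families other than Wap and Lalba, 11 were tested and none passed, with medians from -0.46 (genotype under E2+Pg) to 0.02.

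The 8 genes whose signal over the 19 mice was most like the mean z-score of the milk protein genes were Gm13580, D630008O14Rik, ENSMUST00000117940, Lmo1, Mars, NAP093812-001, Hunk and ENSMUST00000196346. Pearson's r ran from 0.848 for Gm13580 to 0.738 for ENSMUST00000196346. These values describe mice of 4 groups together, and the points share the group differences.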

How the data were processed

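RNA of sorted LCs was measured on 19 single-colour Agilent arrays, 1 mouse each, in 4 groups taken from the labels. The deposited scanner files give spot intensity in arbitrary units, with flags, as written by the authors' Agilent Feature Extraction 10.10.1.1. The deposited value table is in log2 units, after the authors' filter, batch correction and quantile normalization. Outlier spots (1370) were left out, no spot was saturated, and 26479 to 31266 probes were well above background per array. The number of arrays limits the precision. Coordinates of probes are on mm9, from the files, and no annotation of that build was used. Log2 median signals were quantile-normalized (limma 3.58.1, R 4.3.3). Probes had to be well above background on 4 or more arrays. Limma fitted 4 group means over the 19 arrays (15 residual degrees of freedom), with the spread of a gene shared by all 4 groups. Adjusted p-values are Benjamini-Hochberg over 20695 genes, two-sided. A call needed an adjusted p below 0.05 with a fold of over 1.5. Exact permutation tests (SciPy 1.17.1) compared group means of single genes. Where no array of a group cleared background, as for Wap in wild-type with E2, the difference rests on signals near the floor. The slide, which held up to 1 mouse of each group, was tried as a block, and within-slide differences are between its mice. The batches that the methods correct, the washing bath and the labelling series, are not in the labels. The alternatives are other background corrections and scalings, filters, probe rules, array weights, the value table and each mouse left out. Leaving out L4, L18 and L27 together was chosen after seeing the data. The members and the gene and marker lists were chosen with earlier results of these data known. Named genes are the members, up to 4 called genes of each list in a comparison, and the 8 genes most like the members. The other genes named (Krt8, Krt18, Epcam, Krt5, Krt14, Rspo1, Aldh1a3, Jak2, Prlr, Stat5a, Odam, Calca, Tnfsf11, Ccl21a, Fut7, Chst4, Madcam1, Ngp, Prss2, Cpb1, Pnlip, Cpa1 and Cela3b) were taken for their role, from the lists except Calca, with their values seen.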

Additional observations from a re-analysis of the deposited data

Results flagged for a closer look

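In 5 of 40 sets of a milk protein gene and a group, the highest or the lowest mouse lay far from the others by Dixon's gap test, which chance gives in about 1 of 20 sets. Mouse L18 was at 13.22 for Csn2 and at 10.07 for Csn1s2a, where the next C451A-ERα mice on E2+Pg were at 6.84 and 5.99. Mouse L47 was at 8.24 for Csn1s2a, above 6.84 in the next wild-type mouse on E2+Pg. Mouse L76 was at 5.10 for Wap, where the next C451A-ERα mouse on E2 was at 5.48 and L76 was itself not well above background. Mouse L72 was at 6.07 for Glycam1, below the other wild-type mice on E2, of which the next was at 6.90. The causes were not tested.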

How the results depend on the processing

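The count of milk protein genes called was 0 in each comparison and stayed 0 in every setting for progesterone in C451A-ERα and for the interaction. For genotype under E2 it was 2 with array weights and 1 without L4, L18 and L27. For genotype under E2+Pg it was 3 with array weights, 5 without L4, L18 and L27, and 0 to 3 when 1 mouse was left out. The fit without L18 called 5.3% of all genes in that comparison. For progesterone in wild-type it was 2 with array weights, 2 with only the groups compared, 1 in the authors' value table, 2 without L4, L18 and L27, and 0 to 2 when 1 mouse was left out. The mice that changed a count when left out were L18 (genotype under E2+Pg, and progesterone in wild-type) and L72 (progesterone in wild-type). L18 is a mutant, so leaving it out does not alter the wild-type difference and acts there only through the spread shared by the groups. The slide block changed no count. Of 1470 values of single members under the 30 alternatives that test genes, 24 were called, each in the direction of the fit over all mice. The sign changed in 47, none of them called, and the largest of those differences was 0.46 in the fit over all mice. The filter on all 19 arrays left 6 of the 10 genes to test. Signal over background limits Wap, which was not well above background on 10 arrays. Apart from this route of L18 through the shared spread, the cause of these changes was not tested.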
